A study of Mus musculus with 12 samples.

Results

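The 220 kb stretch of mouse chromosome 19 from 23000000 to 23220000 (mm10), which holds Klf9 and the sequence upstream of it, contained 31 of the 222105 open-chromatin peaks in the deposited count table. A peak was taken as a member if its centre lay inside the stretch. The stretch was chosen by the measured rise of its peaks after dexamethasone in wild-type cells and by the difference of that rise between genotypes, so values of those comparisons are given as description without a test. The Dex effect in cKO cells enters that difference and is given in the same way. The filter on low counts left 27 of the 31 peaks for testing, and the 4 peaks it removed, which start at 23054797, 23125633, 23133567 and 23139791, are described by their level alone.

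Klf9 encodes a zinc finger transcription factor of the Krüppel-like family, whose members share the form of their DNA-binding domain with the SP factors and bind GC-rich and CACCC-containing sequence. KLF9 acts mostly as a repressor, and its gene is induced by glucocorticoids in many cell types, as well as by thyroid hormone in the nervous system. The glucocorticoid receptor (GR), encoded by Nr3c1, is a nuclear receptor that moves into the nucleus when bound by a steroid such as dexamethasone (Dex), binds DNA at palindromic or single hexamer elements and can open the chromatin around them. ATAC-seq reads such openness: a transposase inserts adapters where DNA is accessible, and the fragments are counted per peak, so a higher count can stand for more cells open at a site or for more cuts per cell, and these cannot be told apart in bulk samples.

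The samples were T cells differentiated in culture from naive CD4+ T cells of spleen and draining lymph nodes towards the homeostatic Th17 state (Th17Hom). Both genotypes were on the background labelled C57/B6: the WT cells carried an intact receptor, and the GR cKO cells a conditional knockout, with the Cre driver and deleted exons not given in the sources used here. Each genotype was kept without Dex (control) or with Dex for 2 days, which gave 4 groups of 3 libraries, each made from 6000 sorted cells. The labels do not tie the 3 libraries of a group to separate mice or cultures. The p-values therefore cover the spread between libraries, which may be technical.

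The 12 libraries held between 12988437 and 25081591 counts in peaks. Openness at Nr3c1, the targeted gene, gave no check of the genotype labels, and a peak outside the deleted part checks nothing. Of its 24 tested peaks none was called for genotype in control (smallest adjusted p = 0.501, edgeR) or under Dex (0.38). An unadjusted p under 0.05 was reached by 4 of them in control and 3 under Dex, against 7.69% and 8.35% of all tested peaks. The strongest Nr3c1 peak stood at 60.2, 74.4 and 70.1 CPM (the count scaled to the library size) in WT control, 74.9, 82.0 and 65.3 in WT Dex, 52.3, 60.6 and 57.4 in cKO control and 69.9, 61.5 and 57.1 in cKO Dex. Of 9 T cell and Th17 marker genes, 8 had peaks, with the strongest peak of each between 4.19 CPM at Il17a and 49.6 at Lck. No value was obtained for Trac, so nothing is read from its absence. The B cell gene Ms4a1 and the NK cell gene Ncr1 had no peak. Markers of other cell types were not all low, as the B cell gene Cd79a reached 66.3 CPM and the myeloid list ran from 0.827 to 10.3 CPM. The CD8 and NK list reached 14.1 CPM and the erythroid and stromal list 12.2 CPM.

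Around Klf9 the reference (RefSeq, GRCm38.p6) places 6 annotated genes. Trpm3, which encodes a cation channel, ends at 22995410, before the first member. The long noncoding RNA gene C330002G04Rik spans 22978747 to 23075906 on the minus strand, and 11 members overlapped it. A second long noncoding RNA gene, 2410080I02Rik, spans 23134498 to 23137111 on the plus strand and was overlapped by 1 member. Klf9 itself runs from 23141226 to 23168129 on the plus strand, with the microRNA gene Mir1192 inside it, and 5 members overlapped it. Smc5, which encodes a subunit of the SMC5-SMC6 DNA repair complex, begins at 23206441 and was overlapped by 2 members. The remaining 12 members lay between annotated genes.

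Members were between 158 and 2874 bases wide, with a median of 309 bases, and their mean level over all libraries ran from 0.296 to 58.7 CPM. In 11 of the 31 members every group mean was under 1 CPM, so fold changes there rest on few counts. Levels were also taken per kilobase of peak, a rough scaling under which narrow and wide peaks are still not fully comparable. On that scale WT control cells were most open in the Klf9 gene body and at the start itself (20.7 CPM per kb). The gene-body peak, 10.1 kb downstream of the start, stood at 22.4 CPM per kb. The wide peak over 2410080I02Rik stood at 11.9 CPM per kb, and the narrow peak 84.2 kb upstream at 3.5. With Dex the order of the means in WT cells was another one: the peak 84.2 kb upstream reached 32.4 CPM per kb, the wide peak 27.7, the gene-body peak 26.3 and the start peak 23.8. That order depends on the division by width. In CPM the WT Dex means of these peaks were 10.0, 76.3, 39.4 and 68.5.

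**Figure D1:**
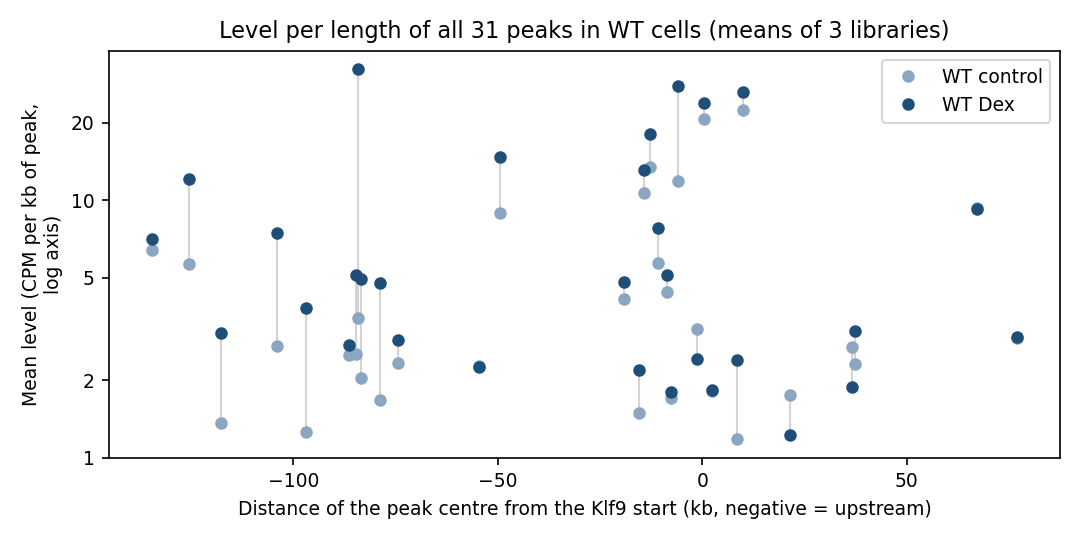
Mean level per kilobase of peak (log axis) for all 31 peaks in WT control (light) and WT Dex (dark), n = 3 libraries each, against the distance of the peak centre from the Klf9 start in kb. The longest grey line, from 3.5 to 32.4 CPM per kb, belongs to the peak 84.2 kb upstream, and the pair from 11.9 to 27.7 to the wide peak 6 kb upstream.

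Sequence was available for the 250 bases before annotated gene starts, and 2 of these windows lay wholly inside a member. The first is the window before the Klf9 start (chr19:23140976-23141225, plus strand), inside the peak with the highest mean CPM over the 12 libraries. The second is the window before the 2410080I02Rik start (chr19:23134248-23134497, plus strand), inside the wide peak that rose most in CPM. They are printed 5′ to 3′ from RefSeq (GRCm38.p6) to set the proximal promoter of Klf9 beside the start inside the Dex-responsive wide peak, with matches to GR elements in capitals.
Klf9: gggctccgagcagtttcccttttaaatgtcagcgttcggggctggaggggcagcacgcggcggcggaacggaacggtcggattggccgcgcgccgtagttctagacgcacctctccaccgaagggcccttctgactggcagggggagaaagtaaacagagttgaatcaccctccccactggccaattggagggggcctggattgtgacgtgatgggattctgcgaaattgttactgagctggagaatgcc
2410080I02Rik: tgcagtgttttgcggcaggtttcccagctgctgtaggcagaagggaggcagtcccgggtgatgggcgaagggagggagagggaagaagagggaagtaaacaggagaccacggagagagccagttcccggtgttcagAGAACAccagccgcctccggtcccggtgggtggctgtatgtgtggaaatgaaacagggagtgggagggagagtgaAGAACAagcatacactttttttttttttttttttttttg

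Both strands were searched for the GR hexamer AGAACA, the core palindrome ACANNNTGT and the full palindrome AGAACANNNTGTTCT, where the core is part of the full palindrome and the hexamer is 1 arm of it. The Klf9 window, with a GC content of 59.6%, held none of the 3. CACCC, the kind of element that KLF factors bind, occurred 1 time in the Klf9 window and 2 times in the 2410080I02Rik window, and 52.01% of such windows in the genome hold it. The 2410080I02Rik window held 2 hexamers, whose first bases lie 114 and 39 bases before the start, and no palindrome. The hexamer is common: 16.08% of 32851 such windows in the genome held at least 1, and 1.81% held 2 or more, against 5.84% with the core palindrome and 0.01% with the full one. A window before a start of C330002G04Rik (chr19:23058093-23058342, minus strand) overlapped the peak 83.5 kb upstream only by the 13 bases next to that start. The window held 1 hexamer and 1 core palindrome, 232 and 146 bases before the start. Both lie outside those 13 bases, so neither is in that peak or in any other member. The letters of the peak 84.2 kb upstream itself were not used here, and a match is a run of letters, not a bound site.

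In WT cells Dex was followed by more open chromatin at 5 of the 27 tested members, and all 5 lay upstream of Klf9. A peak is referred to as called when its adjusted p in edgeR's quasi-likelihood test was under 0.05, and 0.42% of the 202587 peaks tested in the genome were called higher in this contrast. The stretch was selected on this contrast, so nothing is read from that count. No member was called lower, 22 of the 27 log2 fold changes were above 0, and their median was 0.42, against a median of -0.00 and 49.8% above 0 over all tested peaks. Of the called members, 4 form a distal group between 125.6 and 83.5 kb upstream, within C330002G04Rik, and the fifth is the wide peak. None of the distal group was assigned to Klf9 by the rule of the nearest protein-coding gene within 50 kb. The peaks 125.6 and 104.1 kb upstream went to Trpm3, and those 84.2 and 83.5 kb upstream to no gene. The peak 84.2 kb upstream lies 61484 bases from Trpm3, nearer than to Klf9. In the values that follow, ± is the SD over 3 libraries for a level and the SE for a log2 fold change.

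The peak 84.2 kb upstream (chr19:23056894-23057202, 309 bases) gave the largest log2 fold change of the stretch and the smallest p. Its levels were 0.610, 1.23 and 1.40 CPM in WT control against 11.7, 9.60 and 8.73 in WT Dex. In cKO cells it stood at 1.08, 1.62 and 1.35 CPM in control and 1.99, 2.63 and 2.59 CPM with Dex. The WT Dex libraries lay far above the other 9, and the highest of those 9, at 2.63 CPM, was a cKO Dex library. The WT controls rest on 8, 25 and 34 counts and the WT Dex libraries on 185, 172 and 154, so the baseline is known less well than the induced level. The log2 fold change in WT was 3.12 ± 0.24, an 8.72-fold difference.

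The lead peak has a close neighbour on either side, 250 bases away on the upstream side and 144 bases away on the side nearer Klf9. The neighbour 83.5 kb upstream (chr19:23057347-23058105), which reaches over an annotated start of C330002G04Rik, measured 0.763, 2.02 and 1.86 CPM in WT control against 4.35, 3.24 and 3.69 in WT Dex. Its cKO levels were 0.600, 1.46 and 1.55 CPM in control and 1.34, 2.59 and 1.64 CPM with Dex, so the WT groups were apart and the cKO groups overlapped. Its log2 fold change in WT was 1.22 ± 0.30. The neighbour 84.7 kb upstream (chr19:23056378-23056643) measured 0.763, 0.591 and 0.660 CPM in WT control against 1.07, 1.45 and 1.59 in WT Dex, a log2 fold change of 1.04 ± 0.46 that was not called.

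Further upstream, 2 more members of the distal group were called. The peak 125.6 kb upstream (chr19:23015388-23015844) measured 2.59, 2.51 and 2.64 CPM in WT control against 5.67, 6.42 and 4.48 in WT Dex, a log2 fold change of 1.09 ± 0.22. Its cKO libraries spanned 2.0 to 3.0 CPM in control and 2.58 to 3.64 CPM with Dex, which overlapped. The peak 104.1 kb upstream (chr19:23036836-23037338) measured 1.22, 1.08 and 1.81 CPM in WT control against 4.16, 2.96 and 4.14 in WT Dex, a log2 fold change of 1.42 ± 0.30. Its cKO control libraries were uneven, at 2.70, 0.731 and 2.19 CPM, and enclosed the cKO Dex values of 1.95, 1.64 and 2.27 CPM. These smaller calls depended on single libraries: the number called in the stretch dropped from 5 to 3 without any 1 of the WT Dex libraries and to 4 without any 1 of the WT control libraries, while loess scaling added members, for 8 calls. The peak 83.5 kb upstream lost its call without any 1 of the 6 WT libraries (log2 0.95 to 1.42), the peak 104.1 kb upstream without WT control 2 (1.25), WT Dex 1 (1.34) or WT Dex 3 (1.34), and the peak 125.6 kb upstream without WT Dex 2 (0.97).

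The wide peak (chr19:23133843-23136594, 2752 bases) covers the start and most of 2410080I02Rik and ends 4632 bases before the Klf9 start. Its levels were 33.6, 32.8 and 31.8 CPM in WT control against 84.5, 78.9 and 65.6 in WT Dex. In cKO cells they were 31.1, 28.9 and 29.6 CPM in control and 39.3, 36.4 and 31.8 CPM with Dex. The WT controls lay close together, the WT Dex libraries stood above all 9 others, and the lowest of them was still above the highest cKO Dex library. The log2 fold change in WT was 1.22 ± 0.11, a 2.33-fold difference resting on 441 to 1414 counts per WT library. An enhancer upstream of Klf9 that answers to both glucocorticoid and thyroid hormone has been described in other cells, and its position relative to this peak was not examined.

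How far the counts of a library were gathered in strong peaks differed between libraries. The most open 10% of tested peaks, by mean level, took up 60.6, 62.0 and 60.8% in WT control, 63.5, 63.4 and 60.8% in WT Dex, 57.9, 60.3 and 58.5% in cKO control and 61.0, 61.6 and 58.1% of the counts in cKO Dex. In both Dex groups the third library had the lowest share and the lowest wide-peak level, whereas in both control groups the first library had the lowest share and the highest wide-peak level. With that share as a covariate the log2 fold change of the wide peak in WT was 1.13 ± 0.08, and that of the peak 84.2 kb upstream was 3.03 ± 0.25. The peak 83.5 kb upstream was no longer called in that fit (log2 1.04).

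**Figure D2:**
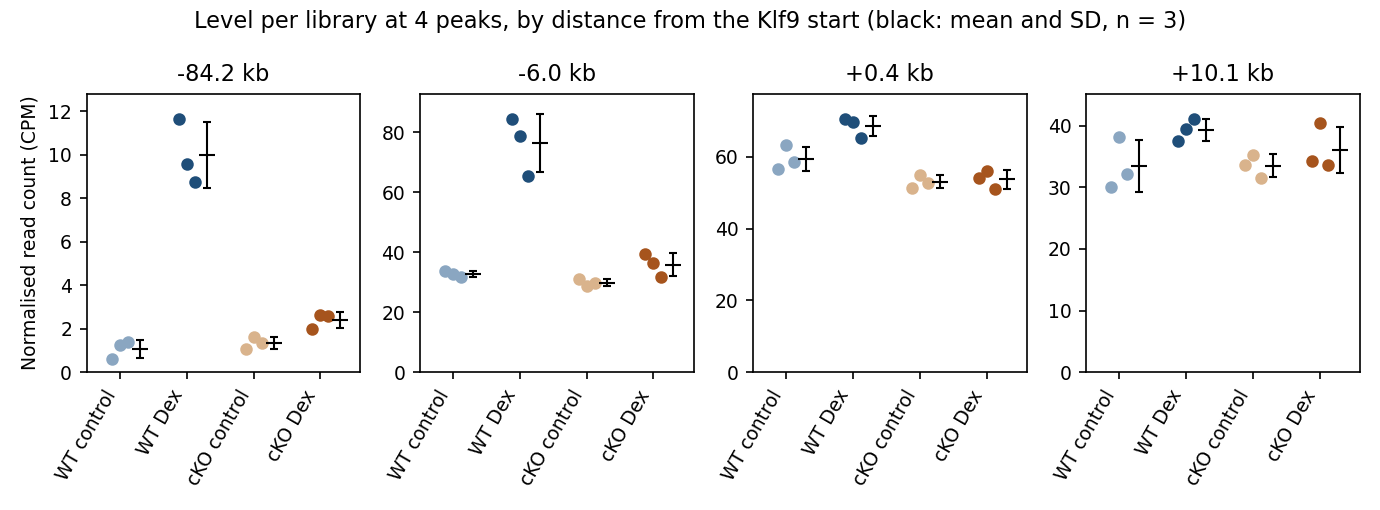
Normalised read count (CPM) of each of the 12 libraries at the peaks 84.2 kb and 6 kb upstream of the Klf9 start, at the start (0.4 kb) and in the gene body (10.1 kb), with the mean and SD of each group (n = 3) in black. At the 2 upstream peaks the WT Dex libraries, 8.73 to 11.7 and 65.6 to 84.5 CPM, stand above all others. At the start they also stand above all others, but by a small margin, from 63.2 to 65.4 CPM. In the gene body they overlap with WT control and cKO Dex libraries.

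At Klf9 itself openness was high in every group, and none of the 5 members overlapping the gene was called in any contrast of the edgeR fit. The peak over the start (chr19:23140234-23143107, 2874 bases), centred 0.4 kb into the gene, measured 56.6, 63.2 and 58.5 CPM in WT control against 70.6, 69.6 and 65.4 in WT Dex. In cKO cells it measured 51.4, 55.1 and 52.8 CPM in control and 54.1, 56.2 and 51.0 CPM with Dex. The WT groups were apart by a small margin, from 63.2 to 65.4 CPM, and the cKO groups overlapped. The log2 fold change in WT was 0.20 ± 0.10, and the peak was not called. The second strong peak in the gene (chr19:23150592-23152086), described here after its values were seen, measured 30.1, 38.2 and 32.1 CPM in WT control against 37.5, 39.5 and 41.1 in WT Dex. Its cKO levels were 33.7, 35.2 and 31.6 CPM in control and 34.2, 40.4 and 33.6 CPM with Dex. Within each genotype the control and Dex groups overlapped, and its log2 fold change in WT was 0.23 ± 0.11. No member overlapped the annotated end of Klf9.

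Not all of the larger changes were called. The peaks 96.8 and 78.9 kb upstream, described here because of their values, had log2 fold changes in WT of 1.65 ± 0.47 and 1.54 ± 0.45. Among the called members only the peak 84.2 kb upstream had a larger one. Their mean levels in WT control were low, at 0.485 and 0.577 CPM, and neither was called. The lowest log2 fold change in WT was -0.49 ± 0.64, at the peak 36.6 kb downstream of the Klf9 start (chr19:23177713-23177934), where mean levels were 0.598 CPM in control and 0.419 with Dex. The peak 49.4 kb upstream, between genes, measured 3.58, 6.01 and 4.95 CPM in WT control against 7.06, 9.43 and 7.54 in WT Dex, a log2 fold change of 0.70 ± 0.18 that just missed the call; it is described here because of its values. Its cKO groups overlapped, with mean levels of 6.16 CPM in control and 6.15 with Dex. Counted by libraries, the lowest WT Dex value lay above the highest WT control value at 14 of the 27 tested members, against 6.96% of all tested peaks, and of these 14 only the peaks 0.4 and 8.6 kb downstream of the start were not upstream of it. That count too comes from the contrast used to select the stretch.

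The ends of the stretch are set by position, and no peak beside them was called. The first member (chr19:23006584-23006854) had a log2 fold change in WT of 0.17 ± 0.32, and the last peak before it outside the stretch (chr19:22940561-22940813) one of 0.80 ± 0.35, from 1.27 to 2.29 CPM. The last member (chr19:23217899-23218379), inside Smc5, had -0.04 ± 0.35, and the next peak outside (chr19:23242614-23242836) had -0.23 ± 0.54. In the 220 kb before the stretch there were 4 peaks, all tested, with a median log2 fold change of 0.52, and in the 220 kb after it 29 peaks, 27 of them tested, with a median of 0.17. No peak of either flank was called in any of the 5 contrasts.

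**Figure D3:**
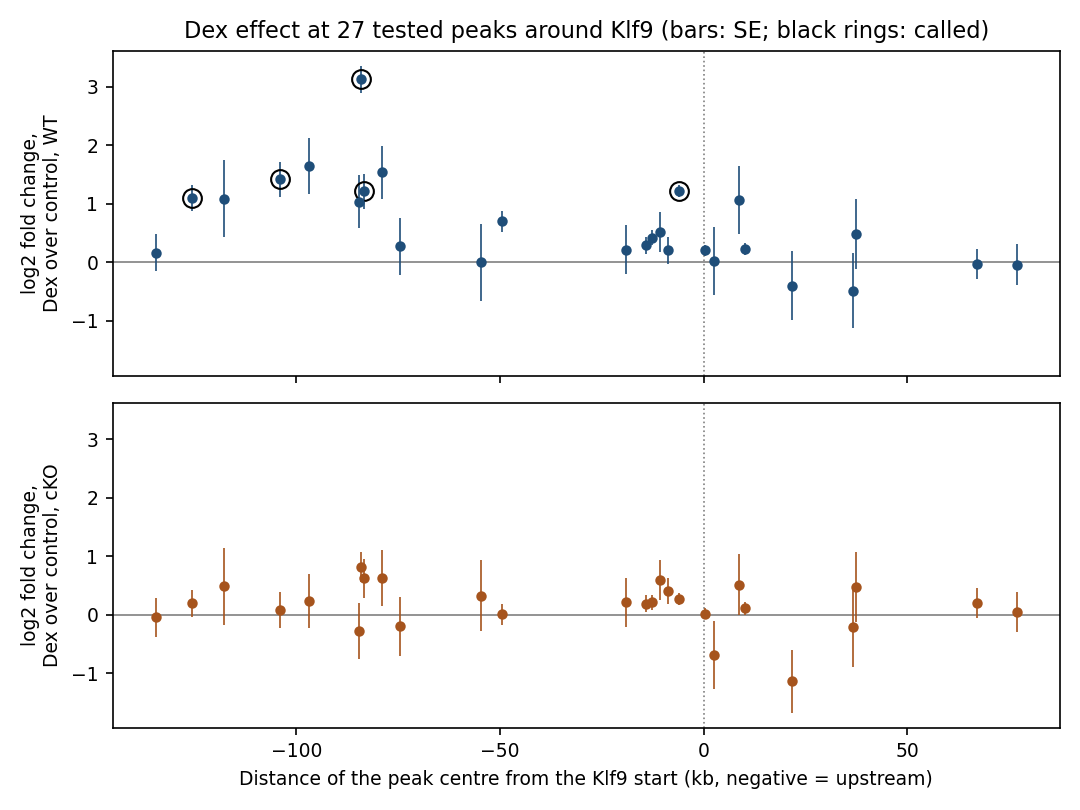
Log2 fold change of Dex over control with its SE at the 27 tested peaks, against distance from the Klf9 start in kb, in WT (top) and cKO (bottom). Black rings mark the 5 called peaks in WT, at 125.6, 104.1, 84.2, 83.5 and 6 kb upstream, and no peak is ringed in cKO.

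In cKO cells no member was called after Dex by edgeR, against 0.00296% of all tested peaks. A low response in cKO cells was part of what selected the stretch, so nothing is read from that count. An unadjusted p under 0.05 was reached by 3 of the 27 members (11.1%), against 5.84% of all tested peaks. Limma-voom called none, nor did DESeq2 among the 12 members to which it gave an adjusted p. The members still leaned upwards: 21 of 27 log2 fold changes were above 0, with a median of 0.20 (18 of 27 and 0.15 with total-count scaling), against 49.5% and a median of -0.00 over all tested peaks. The flanks leaned the same way in cKO cells. Before the stretch 3 of 4 tested peaks were above 0 (median 0.43), and after it 16 of 27 (median 0.11).

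The 2 members with the smallest p for Dex in WT were among those that leaned upwards in cKO cells. At the peak 84.2 kb upstream the cKO Dex libraries (1.99 to 2.63 CPM) lay above the cKO control libraries (1.08 to 1.62 CPM), with a log2 fold change of 0.81 ± 0.26 that was not called. At the wide peak the cKO Dex libraries (31.8 to 39.3 CPM) lay above the cKO control libraries (28.9 to 31.1 CPM), with a log2 fold change of 0.27 ± 0.11 that was not called. The groups were apart in this direction at 4 of the 27 members, or 14.8%, against 5.28% of all tested peaks; the other 2 were the peaks 10.8 and 8.7 kb upstream. At the Klf9 start the log2 fold change in cKO was 0.02 ± 0.10, and its sign turned under total-count scaling (-0.034).

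Without Dex no difference between the genotypes was detected at any member. None of the 27 was called for cKO against WT in control cells, against 0.0104% of all tested peaks. None had an unadjusted p under 0.05 in edgeR, against 7.69% of all tested peaks. Limma-voom called none, nor did DESeq2 among the 3 members to which it gave an adjusted p. The control libraries of this contrast also entered the comparisons that selected the stretch, so it is not independent of the selection. The smallest adjusted p was 0.704 (edgeR), and 11 members had a higher and 16 a lower level in cKO cells. The log2 difference, cKO minus WT, was 0.25 ± 0.29 at the peak 84.2 kb upstream (adjusted p = 0.882), -0.13 ± 0.11 at the wide peak (0.815) and -0.16 ± 0.10 at the Klf9 start (0.709). At the wide peak the sign turned with loess scaling and with the concentration share as a covariate, to 0.013 and 0.010.

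Under Dex the genotypes were far apart at 2 members, and 0.13% of all tested peaks were called lower in cKO cells. This contrast shares its WT Dex libraries with the one used to select the stretch and is given as description. The log2 difference, cKO minus WT, was -2.06 ± 0.21 at the peak 84.2 kb upstream and -1.09 ± 0.10 at the wide peak, which are 4.16-fold and 2.13-fold lower levels. Of the 27 members 5 were higher and 22 lower in cKO cells, with a median of -0.35. Over all tested peaks 49.9% were higher, with a median of -0.00. At the Klf9 start the difference was -0.35 ± 0.10. The start peak was not called by edgeR with TMM scaling, but it was called lower in cKO cells with total-count scaling (-0.27), by DESeq2 (-0.35), by limma-voom (-0.35) and with the replicate block (-0.35). The peak 125.6 kb upstream (-0.86 ± 0.21) was not called in the main edgeR fit. Limma-voom, which made 4 calls in the stretch, called it. So did edgeR with loess scaling (-0.88), with the replicate block (-0.86) and in 2 of the 12 fits with 1 library left out. The peak 104.1 kb upstream, not called in the main fit (-0.94 ± 0.29), was called with the concentration share as a covariate (-1.43). DESeq2 gave an adjusted p to 3 members and called the wide peak and the Klf9 start; at the peak 84.2 kb upstream (-2.06 ± 0.24) its adjusted p was missing.

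The same 2 members were called for the interaction, the Dex effect in WT minus that in cKO, for which 0.0271% of all tested peaks were called higher. The difference was 2.31 ± 0.36 on the log2 scale at the peak 84.2 kb upstream, a 4.96-fold larger response in WT, and 0.96 ± 0.15 at the wide peak, a 1.94-fold larger one. At the other called members of the distal group it was 0.90 ± 0.32 (125.6 kb upstream), 1.34 ± 0.43 (104.1 kb) and 0.60 ± 0.45 (83.5 kb), none of them called. At the Klf9 start it was 0.18 ± 0.14. Of the 27 members, 21 had a larger log2 fold change in WT than in cKO cells, against 50.4% of all tested peaks. The stretch was selected on this difference, so nothing is read from that count.

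Summed over all 31 members, the level of the stretch was 170, 190 and 176 CPM in WT control against 276, 276 and 254 in WT Dex. The group means were 179 ± 10.1 and 268 ± 12.8 CPM, a ratio of 1.50. In cKO cells the sum was 170 ± 3.71 CPM in control and 187 ± 10.3 CPM with Dex. That was 16.8 CPM more, or 10.3 CPM more with total-count CPM. The WT Dex libraries lay above all others, and the cKO groups were next to each other without overlap, at 166 to 174 and 176 to 197 CPM. Of the WT gain of 89.9 CPM, the 5 called members held 66.8% and the wide peak alone 48.5%. The share of the wide peak in the summed level went from 18.4 ± 1.27% to 28.4 ± 2.39% in WT cells and from 17.5 ± 0.811% to 19.1 ± 1.55% in cKO cells. Without the called members the sum was 139 ± 9.80 CPM in WT control against 169 ± 4.71 in WT Dex, a ratio of 1.21.

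**Figure D4:**
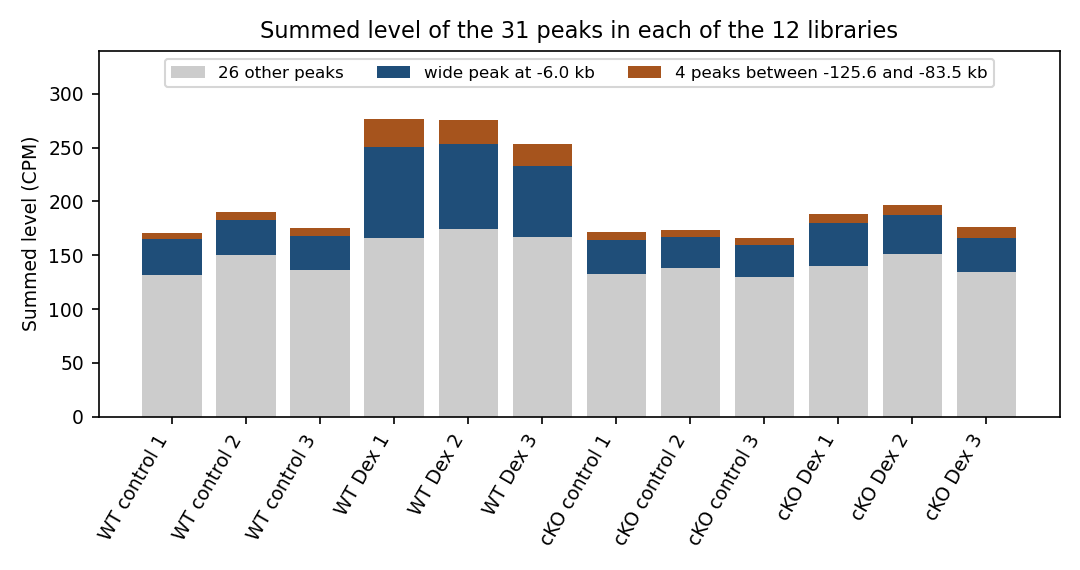
Summed level (CPM) of the 31 peaks in each of the 12 libraries, split into the wide peak 6 kb upstream, the 4 called peaks between 125.6 and 83.5 kb upstream and the 26 other peaks. The WT Dex bars reach 254 to 276 CPM, and the bars of the other 9 libraries 166 to 197 CPM.

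Set against the whole genome, as description, the peak 84.2 kb upstream was 7th of 202587 tested peaks by log2 fold change in WT and 9th by p. The wide peak was 210th of the 851 peaks called higher by log2 fold change and 18th of all by p. The median log2 fold change of those 851 peaks was 0.83, below the value of each of the 5 called members. On a fixed grid of 220 kb windows, 615 of the 7892 windows with a tested peak held a peak called higher, and 9 held 5 or more. The grid was not aligned to the stretch and parts the wide peak from the distal group, so the stretch is not among those 9. The stretch was chosen and placed on this contrast and the grid windows were not, so nothing is read from these counts.

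In the family to which KLF9 belongs, 1 further gene had a called peak. The list held 26 KLF and SP genes, all with tested peaks within the gene or within 50 kb, 382 peaks in all. For Dex in WT, 2 of the 26 genes had a called higher peak, none had a called lower one and 24 had no call. Among all protein-coding genes with a tested peak, 3.12% had a called higher peak and 1.08% a called lower one. By peak, 0.524% of the 382 were called, near the 0.534% of all tested peaks. The 2 genes were Klf9, through the wide peak, and Klf13, which encodes a factor known for its part in chemokine gene control in T cells. Klf9 was selected on this contrast, so nothing is read from the count of genes. The Klf13 peak (chr7:63896249-63898549, within the gene) went from 15.8 ± 1.08 to 25.4 ± 0.548 CPM in WT cells, a log2 fold change of 0.68 ± 0.12, while cKO means were 17.7 CPM in control and 17.5 with Dex. The median log2 fold change over the 382 family peaks was 0.02. None of them was called for Dex in cKO or for genotype in control (smallest adjusted p 0.837 and 0.326, edgeR). An unadjusted p under 0.05 was reached by 26 and 27 of the 382, against 5.84% and 7.69% of all tested peaks. Under Dex the Klf9 and Klf13 peaks were called lower in cKO cells, and for the interaction the Klf9 peak alone was called; the Klf13 interaction was 0.70 ± 0.16.

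The peak 84.2 kb upstream was compared with all tested peaks by Pearson correlation of log2 CPM (prior count 2) over the 12 libraries, taking 1 peak a gene. The closest lay at or near Neb (r = 0.993), Gimap3 (0.992), a (0.991), Prim2 (0.986), Mchr1 (0.981) and Tmem176b (0.981). All points share the 12 libraries, their depth and the 4 groups, so no p is given. The peak near a, the agouti gene, went from 4.86 to 45.1 CPM in WT cells, a log2 fold change of 3.18 ± 0.15, and from 5.54 to 10.2 CPM in cKO cells. The peak at Neb went from 21.2 to 45.5 CPM in WT and from 23.2 to 28.0 CPM in cKO cells. Among the members, the wide peak was closest to it (r = 0.917), followed by the peaks 125.6 kb (0.883) and 83.5 kb upstream (0.867). With Spearman's correlation 3 of the 6 genes were the same.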

How the data were processed

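Deposited counts per peak, per the file headers raw whole-number counts with the width of each of 222105 joint peaks, were used for 12 ATAC-seq libraries. The submitters' processing notes list featureCounts 2.1.1, Genrich 0.6.1, Bowtie2 2.3.5, Trimmomatic 0.39, SAMtools 1.3, Picard 2.18.27 and deepTools 3.5.6, with build mm10. What each did, the filters, any shift for the transposase, the counting of reads against fragments and any pooling for peak calling were not given in the sources used here. A joint peak set that includes Dex samples can favour sites open in them. The libraries had 16 PCR cycles and PCR copies are not independent molecules.

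Counts were filtered with filterByExpr (minimum count 10, minimum total 15; 202587 peaks kept), scaled by TMM and fitted with the robust quasi-likelihood test of edgeR 4.0.16 (R 4.3.3) over all 12 libraries, 1 coefficient per group, 8 residual degrees of freedom. P-values were two-sided, adjusted by Benjamini-Hochberg over all tested peaks of each contrast. The SE is the size of the log2 fold change over the root of its F statistic. CPM is a count over the TMM-scaled library size. The median biological coefficient of variation was 24.8%. Libraries of a group differed beyond counting noise (chi-square per degree of freedom 2.04 to 3.72), so none was merged. The steps were tested on simulated data.

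Members, gene lists and alternatives were chosen with earlier results of these data known. Peaks named were the one with the smallest p for Dex in WT, its neighbours, members called in any contrast, those over the start and end of Klf9, the most open, and the largest and smallest fold change, besides those said to be singled out. Family genes with a called peak and the 6 genes most like the leading peak were named. Peaks took the protein-coding gene whose span held their centre, or the nearest within 50 kb, from the GRCm38.p6 table, the same build as mm10. Alternatives were total-count, relative log expression and loess scaling, no filter, DESeq2 1.42.0, limma-voom 3.58.1, the 2 groups of a contrast alone, the concentration share as covariate, a replicate block and each library left out.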

Additional observations from a re-analysis of the deposited data

Results flagged for a closer look

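The effect of Dex differed between the genotypes at 2 peaks upstream of Klf9, by the interaction term of the edgeR fit over all 12 libraries. At the peak 84.2 kb upstream the Dex effect in WT minus that in cKO was 2.31 ± 0.36 (log2, SE). At the wide peak 6 kb upstream it was 0.96 ± 0.15. At both, all 3 WT Dex libraries lay above the other 9. The stretch was selected on such differences, so these values are a description.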

How the results depend on the processing

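The calls at the peak 84.2 kb upstream and at the wide peak, for Dex in WT, genotype under Dex and the interaction, were kept in every alternative that gave them an adjusted p; for genotype under Dex, DESeq2 gave none at the peak 84.2 kb upstream. Their log2 fold changes for Dex in WT ranged from 2.91 to 3.35 and from 1.14 to 1.33 when 1 library at a time was left out, and the interaction called 2 members in every alternative. Dex in cKO and genotype in control gave 0 calls in every alternative, where DESeq2 gave an adjusted p to 12 and 3 members. For Dex in WT, 8 members were called with loess scaling, and 3 to 6 with 1 library left out. Genotype under Dex gave 4 calls with limma-voom and 2 to 3 with 1 library left out. With total-count CPM the summed level was 176 in WT control and 255 in WT Dex, a ratio of 1.45. In cKO cells it was 177 in control and 187 with Dex, a ratio of 1.06. Of the 6 most similar genes, 3 were shared with Spearman's correlation.

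The replicate numbers did not pair the samples (correlations of deviations -0.118 to 0.153, 3 of 6 libraries matching their own number best in the other arm). With the replicate block, 4 members were called for genotype under Dex and 6 for Dex in WT. No call was lost at the peak 84.2 kb upstream or at the wide peak.

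Reversed signs were confined, among the named peaks and the settings run, to values near 0 or to peaks of low level, none of them called. For Dex in cKO these were the Klf9 start with total counts (-0.034), loess (-0.075) and the share covariate (-0.039), the peak 36.6 kb downstream with loess (0.067) and the peak 84.7 kb upstream with the covariate (0.019). For genotype in control they were the wide peak with loess (0.013) and with the covariate (0.010), and with the covariate the peaks 104.1 kb (-0.12) and 84.7 kb upstream (-0.35). For genotype under Dex it was the peak 36.6 kb downstream with the covariate (0.089). Leaving out 1 library gave Dex in cKO ranges of -0.34 to 0.46 (104.1 kb upstream), -0.60 to 0.30 (84.7 kb), -0.014 to 0.064 (start) and -0.58 to 0.50 (36.6 kb downstream). Genotype in control ranged from -0.053 to 0.20 (125.6 kb upstream) and -0.39 to 0.51 (84.7 kb). The peak 36.6 kb downstream ranged from -0.77 to 0.080 for genotype under Dex and from -1.0 to 0.082 for the interaction. The cause of these changes was not tested. Depth limits the members under 1 CPM, where a library holds few counts.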
